A study of Gallus gallus with 2 samples.

Results

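The genes described here are the 51 genes whose most-read splicing event carried at least 4 times as many reads in SRSF10-deficient chicken DT40 cells as in WT cells, out of 3692 genes with enough reads and 5413 genes with an event that lists 2 numbers per library. For each gene the event with the most reads over both libraries was taken, exclusion and inclusion reads were added, and a gene was kept when both libraries together held at least 40 reads and the SRSF10-deficient reads were at least 4 times the larger of the WT reads and 1. These reads chose the genes, so their values are given as a description and no test is attached to them. The share of genes past this limit was 1.38%, and 46 genes (1.25%) lay past the same limit in the other direction. The minimum is on the sum of both libraries, so a gene that was low in WT cells passed through its SRSF10-deficient reads and had to differ.

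DT40 is a lymphoblast line from the bursa of Fabricius, the organ in which chicken B cells mature. One group was homozygous deficient for SRSF10 (SRSF10-/-, KO) and the other was wild type (WT), with poly(A) RNA sequenced in 1 paired-end library of each. No treatment is named in the labels, and whether the deficient cells came from 1 clone is not given in the sources used here. With 1 library per genotype no difference below has a replicate check, and clone, culture, library and genotype cannot be told apart.

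SRSF10 is a serine/arginine-rich RNA-binding protein that promotes or represses the use of exons. A splicing event is a place where a transcript can be joined in alternative ways, such as a cassette exon that is kept or skipped, or competing 5' or 3' splice sites. Reads that support inclusion or exclusion scale with the amount of transcript as well as with the choice made, and their sum is therefore a rough readout of expression. In one event, more transcript and more use of the listed junctions cannot be told apart, and in bulk RNA neither can more cells with a transcript and more transcript per cell.

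Listed reads summed to 2028082 in the SRSF10-deficient library and 2052835 in the WT library over all events with 2 numbers per library. The median ratio of SRSF10-deficient to WT reads over the 3692 genes was 1.01, and 88.4% of these genes lay within a factor of 2 of equality. SRSF10 had 0 rows under that name, so the genotype was not checked with its own gene. Among 45 B-lymphoid markers 19 had a row, with 6992 KO and 5367 WT reads, led by BLNK, an adaptor of the B-cell receptor (1599 KO and 1628 WT reads), and PTPRC, the phosphatase CD45 (1411 KO and 956 WT reads). Of the 15 B-lymphoid markers with at least 40 reads, 0 lay past the 4-fold limit in either direction, and their median ratio was 1.48. The table lists genes with an alternative event, and markers were matched by exact symbol. A marker without a row therefore says nothing about its expression.

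The 51 genes held 8629 event reads in SRSF10-deficient cells and 1070 in WT cells. Per gene the reads ranged over 37 to 1004 with a median of 92 in SRSF10-deficient cells, and over 0 to 122 with a median of 13 in WT cells. The median ratio was 7.30, with a WT count of 0 replaced by 3 reads, the limit that a count of 0 allows. WT cells had at least 20 reads in 17 of the genes, 1 to 19 reads in 29, and 0 reads in 5. Ratios are followed by an exact 95% Clopper-Pearson interval, which covers counting error only. For the 5 genes with 0 WT reads, "at least" gives the ratio to the limit of 3 reads, rounded down, in place of that interval, whose lower ends were smaller (10.9 to 94.4). Nearest to the limit on its inner side were FXYD6 (488 KO and 122 WT reads, ratio 4), ATAD1 (86 KO and 21 WT reads, ratio 4.10) and NUDT9 (70 KO and 16 WT reads, ratio 4.38). On its outer side lay IL16 (78 KO and 20 WT reads, ratio 3.90), an unnamed locus (39 KO and 10 WT reads, ratio 3.90) and ZDHHC9 (38 KO and 10 WT reads, ratio 3.80).

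**Figure D1:**
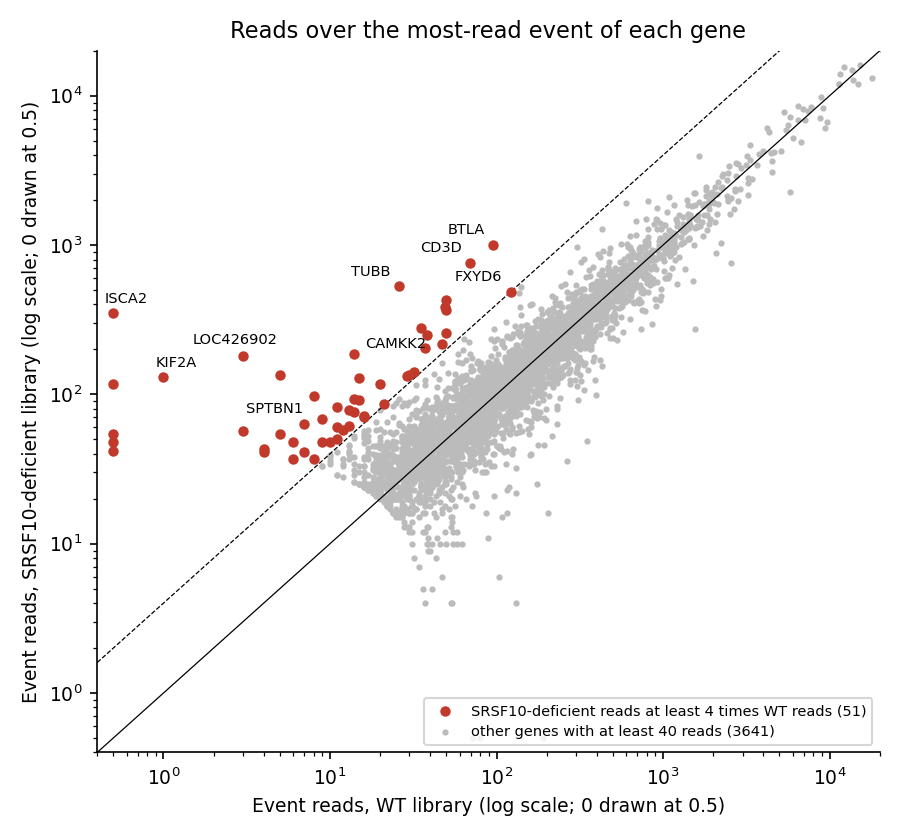
Reads over the most-read event of each of 3692 genes, SRSF10-deficient library (vertical) against WT library (horizontal), both on log scales with 0 drawn at 0.5. The solid line marks equal reads and the dashed line a ratio of 4; the 51 red points lie on or above the dashed line, from BTLA with 1004 SRSF10-deficient and 95 WT reads down to genes with 37 SRSF10-deficient reads.

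Roles below are those known mainly from human and mouse, and the genes were grouped by role after the members were known. Immune receptors and cytokine signalling held 5 of the genes, with 118 to 1004 reads in SRSF10-deficient cells and 20 to 95 in WT cells. BTLA, an inhibitory receptor of B and T lymphocytes, had the most reads of all 51, with 1004 in SRSF10-deficient cells and 95 in WT cells, a ratio of 10.6 (8.56 to 13.2). Its event is a cassette exon on chromosome 1, 88136859 to 88136993 in the galGal4 build. Both forms were more abundant by about the same factor: 210 KO against 21 WT exclusion reads, and 794 KO against 74 WT inclusion reads.

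CD3D, a subunit of the CD3 complex that carries the T-cell receptor's signal, had 759 KO and 69 WT reads at an alternative 5' splice site (chromosome 24, 5482034 to 5482157), a ratio of 11 (8.59 to 14.3). Exclusion reads were 643 in KO cells and 63 in WT cells, and inclusion reads were 116 in KO cells and 6 in WT cells. In the list of 22 T-cell and NK-cell markers only 4 had a row under the listed symbol. Together they had 819 KO and 122 WT reads, of which 759 KO and 69 WT reads were those of CD3D. The others were CD247, the zeta chain of the same complex (27 KO and 38 WT reads), CD8A (33 KO and 15 WT reads) and BCL11B, a T-lineage transcription factor (0 KO and 0 WT reads). At these low counts CD247 had fewer and CD8A more reads in KO than in WT cells. A part of T-lineage cells in the CD3D reads was not tested.

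The remaining immune genes were lower in reads. AMICA1, an older name of the adhesion molecule JAML, had 218 KO and 47 WT reads (ratio 4.64, 3.37 to 6.5). SOCS1B, matched to the current symbol SOCS1L and named for the suppressors of cytokine signalling, had 203 KO and 37 WT reads (5.49, 3.85 to 8.01). CCR9, a chemokine receptor of lymphocytes that home to the gut, had 118 KO and 20 WT reads (5.90, 3.65 to 10.01). All 3 had at least 20 WT reads.

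**Figure D2:**
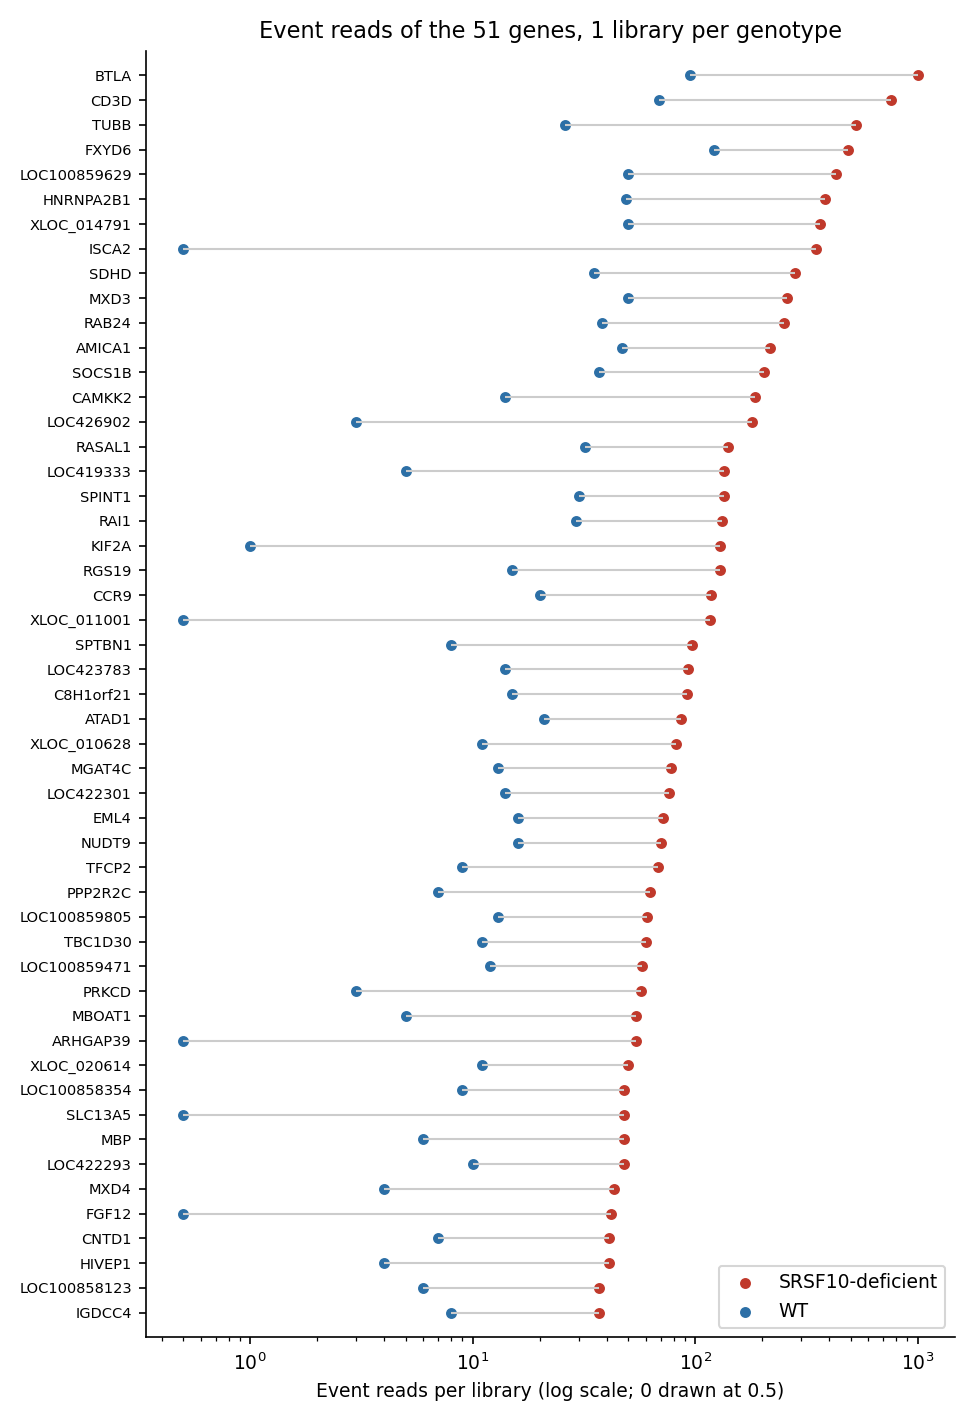
Event reads of each of the 51 genes in the SRSF10-deficient library (red) and the WT library (blue), on a log scale with 0 drawn at 0.5, 1 library per genotype and no error bars. Genes are ordered by SRSF10-deficient reads from BTLA (1004) to IGDCC4 (37), and the 5 genes with 0 WT reads are ISCA2, XLOC_011001, ARHGAP39, SLC13A5 and FGF12.

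Kinases, phosphatases and regulators of GTPases made up 9 genes, with 54 to 251 reads in SRSF10-deficient cells and 0 to 38 in WT cells. CAMKK2, a calcium-dependent kinase upstream of AMP-activated kinase, had 185 KO and 14 WT reads (ratio 13.2, 7.68 to 24.6) at a cassette exon on chromosome 15 (5439037 to 5439170). PRKCD, protein kinase C delta, had 57 KO and 3 WT reads (19, 6.18 to 94.9). The wide interval of PRKCD comes from its 3 WT reads.

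RASAL1, a GTPase-activating protein for Ras, had 141 KO and 32 WT reads (4.41, 2.98 to 6.69). RGS19, which switches off heterotrimeric G proteins, had 129 KO and 15 WT reads (8.60, 5.02 to 15.8). ARHGAP39 had 54 KO and 0 WT reads, at least 18-fold higher. The table places ARHGAP39 on a different chromosome than the current gene table does, the 1 such case among 39 genes that could be compared, so its name is uncertain.

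RAB24, a small GTPase linked to autophagy, had 251 KO and 38 WT reads (6.61, 4.68 to 9.55). PPP2R2C, a regulatory subunit of protein phosphatase PP2A, had 63 KO and 7 WT reads (9, 4.12 to 23.3). TBC1D30, a GTPase-activating protein for Rab proteins, had 60 KO and 11 WT reads (5.45, 2.84 to 11.5), and LOC100859805, whose gene ID carries the current symbol RAB44, had 61 KO and 13 WT reads (4.69, 2.55 to 9.31).

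Among 7 genes of transcription, chromatin and RNA binding, MXD3 and MXD4 are related repressors that compete with MYC for its partner MAX. MXD3 had 259 KO and 50 WT reads (5.18, 3.81 to 7.16) at a cassette exon on chromosome 13 (9526377 to 9526607). MXD4, on chromosome 4, had 43 KO and 4 WT reads (10.8, 3.91 to 41.2). RAI1, a chromatin-associated regulator, had 132 KO and 29 WT reads (4.55, 3.03 to 7.06). HIVEP1, a large zinc-finger protein, had 41 KO and 4 WT reads at its chosen exon (10.2, 3.71 to 39.4), and LOC100858354, whose gene ID carries the histone H1 symbol HIST1H103, had 48 KO and 9 WT reads (5.33, 2.59 to 12.4).

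HNRNPA2B1, an RNA-binding protein of the hnRNP family, and TFCP2, a DNA-binding transcription factor, entered through rows of mutually exclusive exons. HNRNPA2B1 had 384 KO and 49 WT reads (7.84, 5.81 to 10.8), of which 361 KO and 0 WT reads were for exclusion and 23 KO and 49 WT reads for inclusion. TFCP2 had 68 reads in SRSF10-deficient cells, all for exclusion, and 9 in WT cells, all for inclusion (7.56, 3.75 to 17.2). In both genes the inclusion reads were fewer in SRSF10-deficient cells and the exclusion reads more. HNRNPA2B1 was the 1 gene past the limit among 27 listed splicing regulators with enough reads, whose median ratio was 1.05. Over all genes 1.38% lay past the limit, so 1 gene in a list of this size is not read as a result.

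Of the 4 genes of mitochondria and nucleotide hydrolysis, SDHD, a membrane subunit of succinate dehydrogenase, had 280 KO and 35 WT reads (8, 5.62 to 11.7). ISCA2, which assembles iron-sulphur clusters, had 350 KO and 0 WT reads at a 3' splice site on chromosome 5 (37204395 to 37204398), at least 116-fold higher. ATAD1, which extracts misplaced proteins from the outer mitochondrial membrane, and NUDT9, an ADP-ribose hydrolase, lay near the limit as given above. The NUDT9 exclusion reads were almost equal, 17 in SRSF10-deficient cells and 16 in WT cells, while the inclusion reads were 53 in KO cells and 0 in WT cells.

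Cytoskeletal genes numbered 4. KIF2A, a kinesin that takes microtubules apart, had 130 KO reads and 1 WT read at a cassette exon on chromosome Z (19318372 to 19318462), a ratio of 130 (22.9 to 5174). TUBB, a beta-tubulin, had 531 KO and 26 WT reads (20.4, 13.8 to 31.6), in a row of mutually exclusive exons on a scaffold. Its exclusion reads were 31 in SRSF10-deficient cells and 26 in WT cells, and its inclusion reads 500 in KO cells and 0 in WT cells, so nearly the whole surplus lay in the inclusion reads.

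SPTBN1, a spectrin of the membrane skeleton, had 97 KO and 8 WT reads (12.1, 5.91 to 28.9). EML4, a microtubule-binding protein, had 72 KO and 16 WT reads (4.50, 2.59 to 8.29). SPTBN1 was the 1 gene past the limit among 17 listed genes of muscle and the actin cytoskeleton with enough reads, whose median ratio was 1.04. Beside the 1.38% over all genes, 1 gene in a list of this size is not read as a result. Tubulins are a multigene family, and how reads shared between copies were counted is not given in the sources used here.

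Membrane, transport, glycan and secreted proteins made up 8 genes. FXYD6, a regulator of the sodium pump, had the most WT reads of the 51 and lay at the limit itself. SPINT1, an inhibitor of membrane serine proteases, had 135 KO and 30 WT reads (4.50, 3.01 to 6.93). MGAT4C, a glycan-branching transferase, had 78 KO and 13 WT reads (6, 3.31 to 11.8), and MBOAT1, a lysophospholipid acyltransferase, had 54 KO and 5 WT reads (10.8, 4.35 to 34.6). With 0 WT reads were listed SLC13A5, a citrate transporter (48 KO reads, at least 16-fold higher) and FGF12, an intracellular member of the fibroblast growth factor family (42 KO reads, at least 14-fold higher). MBP, the myelin basic protein gene, had 48 KO and 6 WT reads (8, 3.42 to 22.9), and IGDCC4, an immunoglobulin-domain membrane protein, had 37 KO and 8 WT reads (4.63, 2.12 to 11.5).

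The remaining 14 genes had 37 to 431 reads in SRSF10-deficient cells and 0 to 50 in WT cells. The highest among them was LOC100859629, with 431 KO and 50 WT reads (8.62, 6.42 to 11.8). LOC426902 had 180 KO and 3 WT reads (60, 20.2 to 294), and LOC419333 had 135 KO and 5 WT reads (27, 11.3 to 84.5). No role is given for any of these. Smaller counts were seen for CNTD1, a cyclin-related gene of meiosis (41 KO and 7 WT reads), and for LOC423783, LOC422301 and LOC422293, whose gene IDs carry the symbols C10orf128 (93 KO and 14 WT reads), ZNF185 (76 KO and 14 WT reads) and VSIG10L (48 KO and 10 WT reads). C8H1orf21 had 92 KO and 15 WT reads, LOC100859471 had 58 KO and 12 WT reads, and LOC100858123 had 37 KO and 6 WT reads. The other 4 were unnamed assembled loci, of which XLOC_014791 had 365 KO and 50 WT reads and XLOC_011001 had 117 KO and 0 WT reads, at least 39-fold higher, while XLOC_010628 had 82 KO and 11 WT reads and XLOC_020614 had 50 KO and 11 WT reads.

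The surplus was next split by the side of the event. In 31 genes each side held at least 10 reads over both libraries. In 27 of these 31 both exclusion and inclusion reads were at least 2 times as many in SRSF10-deficient cells as in WT cells. Among all 2302 genes with this depth on each side the share was 4.13%. The sum of both sides chose the genes, so this count follows in large part from the rule, and nothing is read from it. The 4 exceptions were TUBB, HNRNPA2B1, NUDT9 and LOC100858354, the last with 42 exclusion reads in SRSF10-deficient cells against 5 in WT cells and 6 inclusion reads in KO cells against 4 in WT cells. In the other 20 genes a side held fewer than 10 reads, so the split was not made. TFCP2 was among them, with 68 KO and 0 WT exclusion reads against 0 KO and 9 WT inclusion reads.

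**Figure D3:**
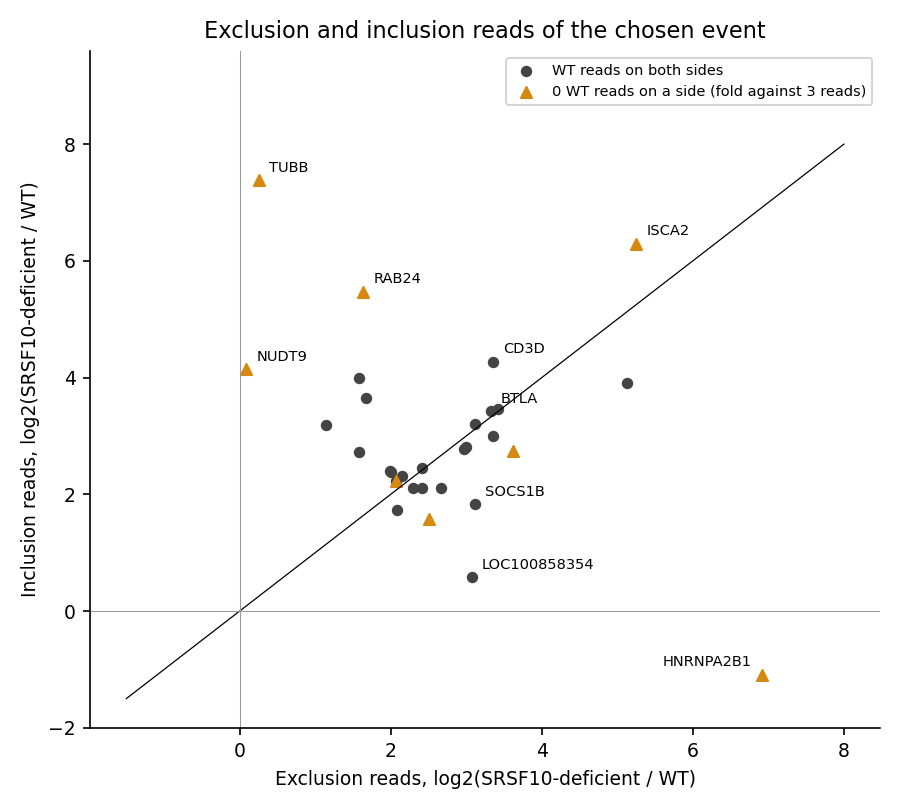
Log2 ratio of SRSF10-deficient to WT reads for exclusion (horizontal) and inclusion (vertical) in the 31 genes with at least 10 reads on each side; the line marks equal ratios, and triangles have 0 WT reads on a side and a ratio taken against 3 reads. BTLA lies near the line, while TUBB and NUDT9 have exclusion ratios near 0 on the log2 scale and HNRNPA2B1 has an inclusion ratio below 0.

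Inclusion levels, the inclusion reads as a percent of all reads of the event, were taken in the 17 genes with at least 20 reads in each library. They come from the same pair of libraries as the choice of genes and are given with exact 95% Clopper-Pearson intervals and without a test. A level of 0 is given instead with the limit of 3 reads. In 13 of the 17 the level differed by less than 10 percentage points, and in 4 by at least that. Over all genes with this depth 13.1% of 3453 differed by at least 10 points. BTLA had 79.1% inclusion in SRSF10-deficient cells (76.4 to 81.6) and 77.9% in WT cells (68.2 to 85.8). CD3D had 15.3% in KO cells (12.8 to 18.04) and 8.70% in WT cells (3.26 to 18), with overlapping intervals. CCR9 had 89.8% in KO cells (82.9 to 94.6) and 80% in WT cells (56.3 to 94.3), also overlapping. With inclusion reads of cassette exons halved, since a kept exon has a junction on either side, CCR9 differed by 14.9 points instead of 9.83, and the split was 12 and 5 genes.

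The 4 genes with larger differences were TUBB, HNRNPA2B1, RAB24 and SOCS1B. At the RAB24 3' splice site (chromosome 13, 9529264 to 9529552) inclusion was 53% in SRSF10-deficient cells (46.6 to 59.3; 251 reads), while 0 of 38 WT reads supported inclusion, which allows a level of up to 7.89% (3 of 38 reads; the exact upper bound is 9.25%). RAB24 exclusion reads were also more numerous, 118 in SRSF10-deficient cells against 38 in WT cells. The higher total was required by the rule, while the choice of site also differed between the libraries. The SOCS1B cassette exon (chromosome 1, 49093250 to 49093367) had 40.4% inclusion in SRSF10-deficient cells (33.6 to 47.5) and 62.2% in WT cells (44.8 to 77.5), and these intervals overlap. The TUBB row had 94.2% in KO cells against 0% in WT cells (0 of 26 reads, which allows up to 11.5%, or 3 of 26 reads; the exact upper bound is 13.2%), and the HNRNPA2B1 row had 5.99% in KO cells against 100% in WT cells. Among 9 other rows of the 51 genes with the same depth, most of them in RASAL1, 3 differed by at least 10 points. An alternative 3' site of MXD3 had 2.50% inclusion in KO cells and 15% in WT cells, with overlapping intervals (0.685 to 6.28 in KO cells, 3.21 to 37.9 in WT cells). A second ATAD1 event had 98.8% in KO cells and 81% in WT cells, also overlapping (93.6 to 99.97 in KO cells, 58.1 to 94.6 in WT cells). A further mutually exclusive row of TFCP2 had 31% in KO cells (17.6 to 47.1). In WT cells 0 of 22 reads supported inclusion, which allows up to 13.6%, or 3 of 22 reads, with an exact upper bound of 15.4%. In the authors' deposited table RAB24 was the 1 gene of the 51 with an adjusted p-value under 0.05 in its chosen event (0.0078). Of all rows with 2 numbers per library 1.66% were under 0.05, which counts every row and not only the most-read row of each gene. Beside this share, 1 gene of 51 is not read as a result.

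Other events of the same genes were listed for 25 of the 51. One of them, in TUBB, repeated the reads of the chosen event and was set aside. Of the 43 remaining rows with at least 10 reads, in 23 genes, 32 had at least 2 times and 23 at least 4 times as many reads in SRSF10-deficient as in WT cells. Among 3731 such rows of the other genes with enough reads the shares were 8.87% and 1.63%. Events of a gene can share reads and come from the same libraries, so these rows are a second view of the same difference and not a replicate.

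Summed per gene, the other events had a ratio of at least 4 in 13 of the 23 genes, of 2 to 4 in 6, and under 2 in 4. CAMKK2 had 155 KO and 10 WT reads at a further cassette exon (chromosome 15, 5436609 to 5436704). KIF2A had 222 KO and 19 WT reads over its other events, and MXD3 had 160 KO and 20 WT reads at a pair of 3' splice sites. These 3 genes thus had more reads in SRSF10-deficient cells at every listed event. The same held for others of the 23, among them EML4 and IGDCC4. RASAL1 had 508 KO and 142 WT reads over 6 other events, with single ratios of 1.44 to 5.95.

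For 4 genes the other events did not share the surplus. ISCA2 had 69 KO and 59 WT reads at a retained intron, and 73 KO and 70 WT reads over both of its other events, against 350 KO and 0 WT reads at the chosen 3' site. HIVEP1 had 36 KO and 42 WT reads over 3 other events, against 41 KO and 4 WT reads at its chosen exon. Each of these events held 12 KO reads, beside 13, 14 and 15 WT reads. They may share reads, so the sums can overstate the depth. LOC100859471 had 4 KO and 6 WT reads, and XLOC_014791 had 5 KO and 8 WT reads, which is too few to read a direction. TFCP2 was mixed: its other 5 rows ranged in ratio from 0.647 to 16.8, and all 6 rows lie within 1 scaffold.

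**Figure D4:**
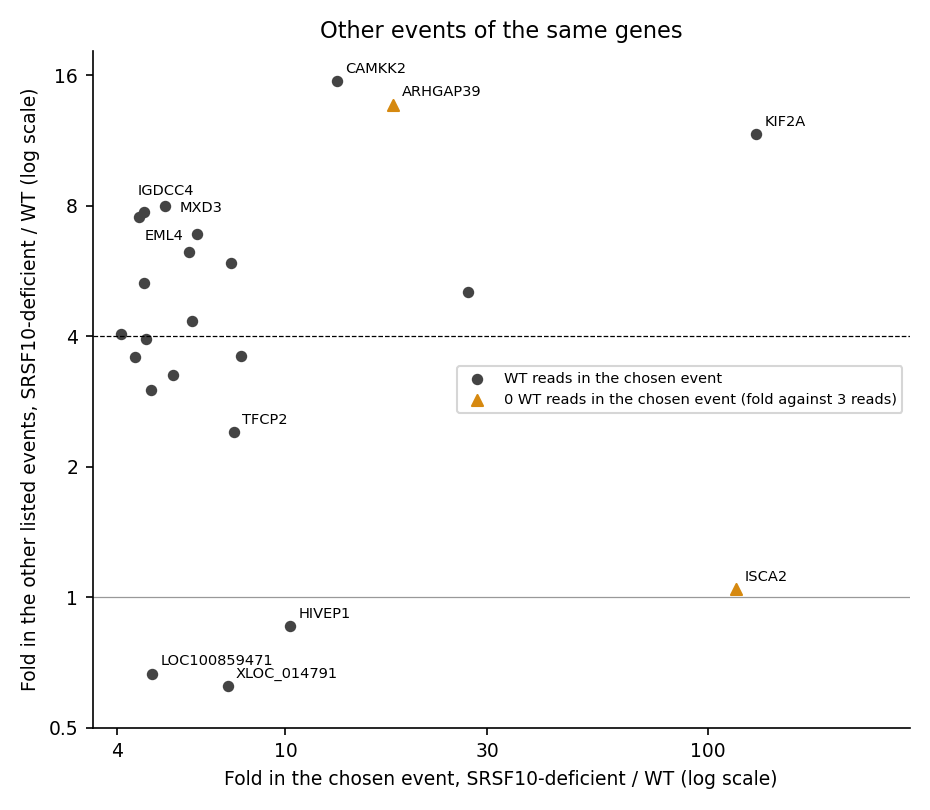
Ratio of SRSF10-deficient to WT reads in the other listed events of a gene, summed (vertical), against the ratio in its chosen event (horizontal), for 23 genes on log scales; the dashed line marks 4, the solid line 1, and triangles have 0 WT reads in the chosen event. CAMKK2 (15.5) and KIF2A (11.7) are high on both axes, while ISCA2 (1.04) and HIVEP1 (0.857) lie near 1 on the vertical axis.

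By type of event, 22 of the 51 chosen events were cassette exons (43.1%, against 37.6% of all 3692), 11 had no defined type (21.6% against 29.3%), 7 were alternative 3' sites (13.7% against 13.7%), 7 alternative 5' sites (13.7% against 11.2%), 3 mutually exclusive exons (5.88% against 1.27%) and 1 a retained intron (1.96% against 6.93%). The 3 mutually exclusive rows, in TUBB, HNRNPA2B1 and TFCP2, were 6.38% of the 47 genes represented by such a row. All 3 had 0 WT reads on the side that was high in SRSF10-deficient cells.

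By position, 5 of the 45 genes on chromosome 24 with enough reads were past the limit (11.1%), against 1.38% over all chromosomes. This was the largest share of any numbered or sex chromosome. Next were chromosome 25 (2 of 35 genes, 5.71%) and chromosome 26 (2 of 54 genes, 3.70%). The rule chose the genes on these reads, and most of those on chromosome 24 are close neighbours. Nothing is therefore read from these shares. FXYD6, XLOC_010628, AMICA1 and CD3D lay in this order within 79.0 kb, counted from the start of the FXYD6 event to that of the CD3D event. In the same order they had 488, 82, 218 and 759 reads in KO cells and 122, 11, 47 and 69 reads in WT cells. The rule itself required more KO reads in each. Between them the table lists SCN2B, a sodium channel subunit (5 KO and 0 WT reads), and LOC100859131 (10 KO and 23 WT reads), both too shallow for the limit.

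The nearest genes with enough reads on either side had ratios near 1. ZW10, a kinetochore protein whose event starts 1.86 kb beyond that of CD3D, had 87 KO and 76 WT reads (ratio 1.14). On the FXYD6 side the nearest was LOC770340, for which no role is given, with 19 KO and 23 WT reads (0.826). Its event starts 173 kb from that of CD3D, while that of FXYD6 starts 79.0 kb from it. The genes listed between LOC770340 and FXYD6 were too shallow, among them TMPRSS13 (2 KO and 2 WT reads). Where the stretch ends on this side therefore cannot be told. Farther out, DDX6, an RNA helicase, had 155 KO and 133 WT reads (1.17), and CEP164, a centriole protein, had 50 KO and 44 WT reads (1.14). HYOU1, whose event starts 189 kb from that of CD3D, had 6122 KO and 4233 WT reads (1.45). DSCAML1, a neural adhesion molecule between CEP164 and FXYD6, had 11 KO and 0 WT reads, below the minimum. SDHD, the fifth gene on chromosome 24, lies outside this stretch. CD3E lies between JAML and CD3D in the current gene table. No event with 2 numbers per library was listed under its name, which says nothing about its expression.

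**Figure D5:**
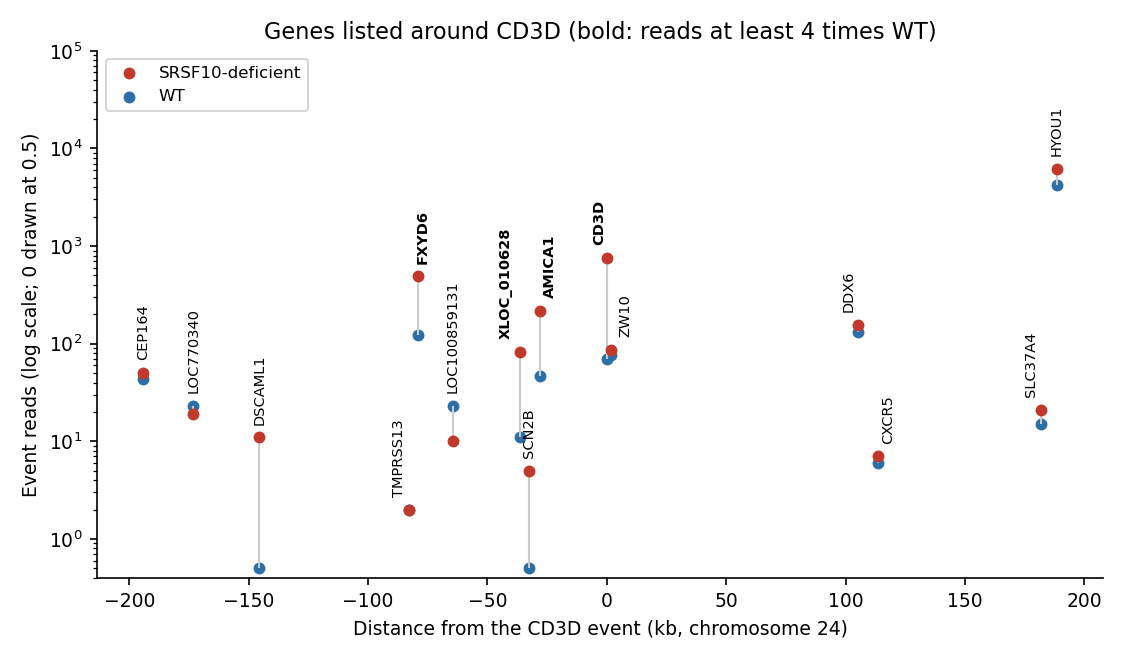
Event reads in the SRSF10-deficient (red) and WT (blue) library for each gene listed within 200 kb of the CD3D event, against distance from that event in kb, on a log scale with 0 drawn at 0.5. FXYD6, XLOC_010628, AMICA1 and CD3D, in bold, are separated between the libraries, as the rule that chose them required. ZW10, DDX6, CEP164 and LOC770340 have ratios of 0.826 to 1.17. HYOU1, near the edge, has 6122 SRSF10-deficient and 4233 WT reads, a ratio of 1.45.

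A second pair of neighbours was MXD3 and RAB24 on chromosome 13, whose events start 2.89 kb apart. On one side XLOC_004673 had 355 KO and 402 WT reads (0.883), and on the other NSD1, a histone methyltransferase, had 279 KO and 205 WT reads (1.36). Whether reads were assigned by strand is not given in the sources used here, so reads of overlapping transcripts of close neighbours could not be separated. In all, 6 of the 51 genes had another of the 51 within 100 kb, against 2 of the 46 genes past the limit in the other direction. The 6 are FXYD6, XLOC_010628, AMICA1 and CD3D in 1 stretch, and MXD3 with RAB24. The same count was not made over all genes with enough reads, so nothing is read from 6 against 2.

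Of 656 genes in 21 lists of pathways and cell types, 162 had enough reads under the listed symbol. Of these, 3 were past the limit (1.85%, against 1.38% of all genes). Genes listed under an older name were missed, such as KMT2C as MLL3 (226 KO and 241 WT reads). The 3 past the limit were CD3D, SPTBN1 and HNRNPA2B1. The other 18 lists, among them B-lymphoid, interferon, NF-kB, p53, sterol and unfolded-protein genes, held 0 such genes. Those named had 15, 4, 9, 8, 10 and 5 genes with enough reads, in this order, and 1 of the 18 lists had none. With 1.38% of all genes past the limit, a count of 0 in lists this small says little. In 12 lists with at least 5 measured genes the median ratio ran from 0.723 to 1.55, beside 1.01 over all genes. In the other direction 5 of the 162 list genes, in 3 lists, lay past the limit, against 46 of all 3692 genes (1.25%).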

How the data were processed

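Paired-end libraries were made from poly(A) RNA, per the labels' protocols. The submitters' processing notes name TopHat2 2.0.6 and Cufflinks as tools and galGal4 as the build, and no source used here names the program that counted events. The deposited table holds raw read counts for exclusion and for inclusion of each event in each library, per the file headers. It also holds an adjusted p-value of the authors, whose test is not stated. Of 10652 rows, 10376 had 2 numbers per library and were used; 276 had 3 or more.

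Reads were not scaled between libraries. The genes, lists and roles were chosen with earlier results of these data known. For reporting, the rule took the 15 genes with most SRSF10-deficient reads, the 15 with the largest ratio, list members, genes with 3 or more positions, genes with at least 20 WT reads and those at the limit, 35 in all; the other members were named after their values were seen. Names were matched to the GRCg7b RefSeq gene table for 41 of 51. The selection step was run on simulated counts with counting noise alone and known changes larger than the limit. Such counts hold no variation between clones or cultures, so this checks the code and not the genes named here. No sequences were used here. Python 3.11.15, pandas 2.3.3, NumPy 2.4.6, SciPy 1.17.1 and matplotlib 3.10.9 were used.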

Additional observations from a re-analysis of the deposited data

Results flagged for a closer look

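Rows with 3 or more numbers per library were used in none of the comparisons above, since the header does not explain their order. Only rows of this kind past the same 4-fold limit were searched for the 51 genes, so the ratio of a row found there is a description. Among them was a row of CD3D, an event with no defined type (chromosome 24, 5482845 to 5483009). It lists 1667, 1667 and 1667 reads in SRSF10-deficient cells and 207, 260 and 207 in WT cells. Summed, these are 5001 and 674, a ratio of 7.42. Whether the equal numbers are the same reads is not stated, so the sums may count reads more than once. Among the 207 rows of this kind with at least 40 summed reads, 9 (4.35%) had at least 4 times as many reads in SRSF10-deficient as in WT cells. In the other direction 3 lay past the same limit.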

How the results depend on the processing

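The number of genes changed with the limits set. It was 93 with a minimum of 20 reads and 27 with 100, 95 with a ratio of at least 3 and 22 with at least 8, 23 with cassette exons alone, and 22 when the lower counting bound had to reach 4. It was 51 with SRSF10-deficient reads scaled to the WT total, 47 without unnamed loci and 48 without mutually exclusive rows, an alternative chosen after seeing the data. With all rows of a gene summed it was 61, of which 46 were among the 51. The median ratio of 7.30 was 6.38 with all rows summed and 7.39 after scaling. It was 4.33 over the other rows of the 23 genes that had them. These 23 are a subset of the 51, so 4.33 and 7.30 do not compare the same genes. The cause of the difference was not tested. Halving the inclusion reads of cassette exons moved the median inclusion difference of the 17 genes to 2.98 points, against 2.82 as reported. It moved CCR9 to 14.9 points, against 9.83, which put 5 of the 17 genes past 10 points, against 4. Depth limits the genes with few WT reads most, since 34 of the 51 have fewer than 20. No paired analysis was possible because each genotype has 1 library.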
